A study of Homo sapiens with 33 samples.

Results

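The 8 genes described here serve the synthesis of glutathione, the uptake of cystine for it, and the use and recycling of glutathione: GCLM, GCLC, SLC7A11, GSS, GSR, GPX2, GPX4 and MGST1. The genes were taken by symbol, with no threshold on a measured value, from a set proposed with earlier results of these data known. Their Ensembl identifiers matched 8 of the 60675 gene rows of the deposited count table, 1 row per gene, and all 8 passed the filter on low counts, as did 17432 genes in all.

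Glutathione is a tripeptide of glutamate, cysteine and glycine that cells use to reduce peroxides and to tag reactive compounds for export. Its synthesis is limited by cysteine, much of which enters cultured cells as cystine, and by the enzyme that joins glutamate to cysteine. Glutathione peroxidases then oxidize glutathione as they reduce peroxides, and glutathione reductase restores it with NADPH. Several of these genes are textbook targets of the transcription factor NRF2, which binds the antioxidant response element (ARE), and SLC7A11 is also a target of ATF4, a factor of the amino acid response.

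RNA was sequenced from HT29, a human colorectal adenocarcinoma cell line, 24 h after the addition of an extract or vehicle. The extracts were made with 70% ethanol from 4 herbal formulas used in Korean medicine as tonics: Sagunja-tang and Samul-tang, then Palmul-tang, a combination of the herbs of both, and Sibjeondaebo-tang, in which further herbs are added to Palmul-tang. Each was given at 500, 100 and 20 µg/mL (high, medium and low dose), and vehicle was 0.1% DMSO in the sample labels, whereas the text of the series names another percentage. There were 3 vehicle libraries, 2 libraries for each dose of Sagunja-tang and Samul-tang (replicates 2 and 3), and 3 for each dose of Palmul-tang and Sibjeondaebo-tang, 33 libraries in 13 groups. All come from the same cell line, so each group describes HT29 only. Nothing in the labels says that replicates were separate cultures, and the p-values then measure no more than how far these libraries scatter, part of which may be technical. Sample codes begin one way for vehicle, another way for Sagunja-tang and Samul-tang, and a different way again for Palmul-tang and Sibjeondaebo-tang. All 33 sample titles carry the same tag, BatchE. The labels do not say what the codes mean, and in a comparison of an extract with vehicle the extract and the code cannot be told apart. Doses of 1 extract share a code.

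On GRCh38 in GENCODE 29, GCLM (ENSG00000023909) lies on chromosome 1 at 93885205 to 93909456, GCLC (ENSG00000001084) on chromosome 6 at 53497341 to 53616970 and SLC7A11 (ENSG00000151012) on chromosome 4 at 138164097 to 138242349, all on the minus strand. GSS (ENSG00000100983) lies on chromosome 20 at 34928433 to 34956027, GSR (ENSG00000104687) on chromosome 8 at 30678061 to 30727999 and GPX2 (ENSG00000176153) on chromosome 14 at 64939152 to 64942905, also on the minus strand. GPX4 (ENSG00000167468) lies on chromosome 19 at 1103926 to 1106791 and MGST1 (ENSG00000008394) on chromosome 12 at 16347142 to 16609259, both on the plus strand. Each is a protein-coding gene, and the values are for whole genes. SLC7A11 shares 865 exon bases with the antisense transcript SLC7A11-AS1, which had a mean count of 68.1 against 6736.2 for SLC7A11, and GCLC shares 529 with the long non-coding gene AL033397.1, at 35.6 against 4352.6. Whether the counting used strand is not given in the sources used here.

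Total counts per library ran from 28.6 M to 49.1 M. Of 10 intestinal epithelial markers, 9 were at 1 CPM (counts scaled to a common library total) or more, with CDX1 below, and their summed level was 12216 to 12656 CPM in vehicle and 11554 to 13979 CPM with extracts. Among markers of other cells, COL1A1 of 6 for fibroblasts, PECAM1 of 3 for endothelium and CD14 and LYZ of 5 for leukocytes reached 1 CPM, and PDGFRA was at 0. The leukocyte markers summed to 1370 to 1433 CPM in vehicle and 1367 to 1822 with extracts, and their part in the results was not tested. In bulk RNA, fewer cells of a kind and less RNA per cell cannot be told apart. Mitochondrial genes took 8.69 to 11.4% of counts in vehicle and 5.71 to 8.83% with extracts, and the part of this difference in the results was not tested. The high-dose Sagunja-tang libraries differed from each other along gene length (Spearman correlation of their log ratio with exon length 0.367, across genes of these libraries), more than any other pair of replicates did.

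The ARE is the best known element in front of genes such as these, and the promoter windows were searched for its core, TGACNNNGC, on both strands. RefSeq windows on GRCh38.p14, from 250 bases before to 50 bases after an annotated start, were found for 5 of the 8 genes (GCLM, GCLC, GPX2, GPX4 and MGST1), 9 windows in all; SLC7A11, GSS and GSR were not matched. The 250 bases before the start are shown 5′ to 3′ on the strand of the gene for both subunits of glutamate-cysteine ligase and for GPX2, the most abundant member, with a match to the core in capitals.
GCLM (chr1:93909431-93909680, minus strand): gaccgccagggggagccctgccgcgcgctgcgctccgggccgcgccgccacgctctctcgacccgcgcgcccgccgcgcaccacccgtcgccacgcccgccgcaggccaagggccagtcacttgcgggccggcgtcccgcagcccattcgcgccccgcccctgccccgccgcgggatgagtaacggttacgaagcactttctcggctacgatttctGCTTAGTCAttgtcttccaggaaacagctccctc
GCLC (chr6:53545102-53545351, minus strand): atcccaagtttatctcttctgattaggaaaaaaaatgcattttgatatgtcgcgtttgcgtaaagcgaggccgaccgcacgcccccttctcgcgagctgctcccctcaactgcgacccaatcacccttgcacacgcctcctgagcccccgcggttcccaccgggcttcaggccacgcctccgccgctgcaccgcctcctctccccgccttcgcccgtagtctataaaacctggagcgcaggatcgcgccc
GPX2 (chr14:64942746-64942995, minus strand): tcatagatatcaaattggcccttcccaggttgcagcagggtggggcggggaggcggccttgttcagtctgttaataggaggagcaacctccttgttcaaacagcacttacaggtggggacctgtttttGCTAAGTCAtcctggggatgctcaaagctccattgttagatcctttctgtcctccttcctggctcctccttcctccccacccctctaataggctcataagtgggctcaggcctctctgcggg
In GCLM the match reads GCTTAGTCA, TGACTAAGC on the opposite strand, from 34 to 26 bases before the start (chr1:93909456-93909464), at the edge of the gene as GENCODE 29 draws it. In GPX2 it reads GCTAAGTCA, from 122 to 114 bases before the RefSeq start (chr14:64942859-64942867), within the bounds of the GENCODE 29 gene, which begins further upstream. The remaining match, TGACAAAGC, lies 31 to 39 bases after the start of 1 of the 3 MGST1 windows, and the windows of GCLC and GPX4 held none. The GCLC window lies within the bounds of the GENCODE 29 gene, which begins further upstream at 53616970. Bases outside the windows were not searched. The core occurs in 13.3% of all 35116 windows of this length (16.1% of 27305 genes), and a match is a description of the letters. The core of the amino acid response element, TGATGNAA, was in none of the members' windows and in 3.62% of all windows.

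The members differed widely in level. Per kilobase of exon, GPX2, the selenium-dependent glutathione peroxidase of the gut epithelium, was the highest in vehicle at 617 CPM per kb, and over all libraries its mean stood at the 99.8th percentile of the genes tested. GPX4, the peroxidase that reduces lipid hydroperoxides in membranes, followed at 124 CPM per kb, and MGST1, a microsomal glutathione transferase and peroxidase, at 28.0. GSR, the reductase, was at 16.5 CPM per kb and SLC7A11, the light chain of the cystine/glutamate exchanger, at 15.0. By this measure the genes of the synthesis enzymes were the lowest. GCLM, the modifier subunit of glutamate-cysteine ligase, was at 11.8 ± 0.810 and GCLC, its catalytic subunit, at 11.5 ± 0.980. GSS, the synthetase that adds glycine, was at 8.78 CPM per kb. Per kb, the vehicle libraries of GCLM and GCLC overlapped in range, and so did those of GSR and SLC7A11. Within each vehicle library GCLM lay above GCLC, and GSR above SLC7A11. These differences between genes were not tested. The order between genes rests on the annotated exon length of each gene. It was 5420 bases for GCLM, 8646 for GCLC, 3760 for GSR and 9645 for SLC7A11. Before division by length, vehicle means were 63.8 CPM for GCLM, 99.1 for GCLC, 61.9 for GSR and 145 for SLC7A11. Which transcripts these cells make, and the order with their lengths, was not tested. Comparisons below use CPM normalized by TMM, within a gene.

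**Figure D1:**
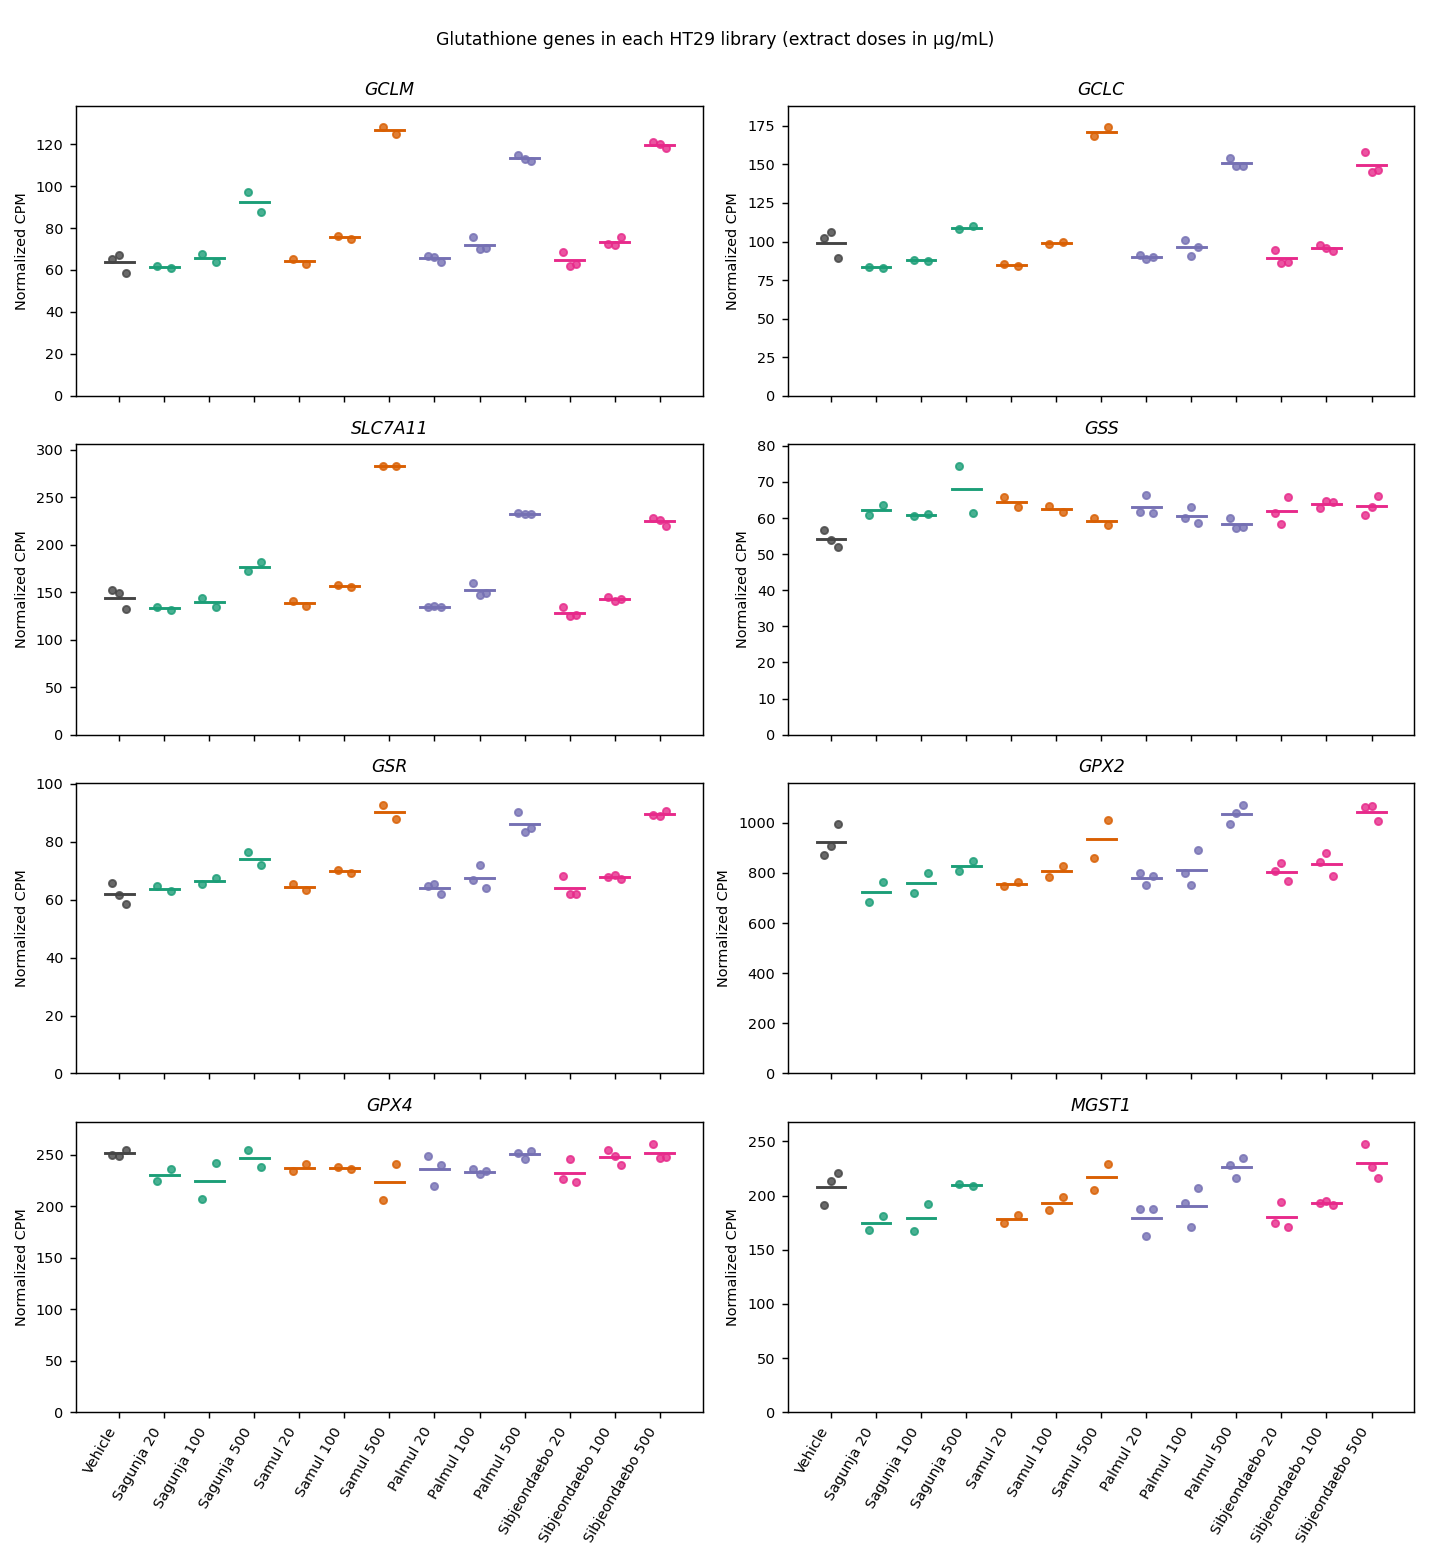
Each panel plots 1 gene, with normalized CPM on the y axis (from 0) and the 13 groups on the x axis, extracts by dose in µg/mL; points are libraries and bars are group means. GCLM, GCLC, SLC7A11 and GSR stand highest at 500 µg/mL of Samul-tang, Palmul-tang and Sibjeondaebo-tang, while GPX4 stays between 206 and 261 CPM in all libraries.

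At the high dose, the genes of cystine uptake and of the first step of synthesis rose with all 4 extracts, and GSR rose with them. GCLM, GCLC, SLC7A11 and GSR were higher than in vehicle in each comparison, by log2 0.13 to 0.98, and most with Samul-tang. GSS and the peroxidases did not share this pattern. Of the 8 members, 5 rose and 0 fell with Sagunja-tang, where 36.7% of all genes tested were called (18.7% higher, 18.0% lower). With Samul-tang 4 rose and 1 fell, against 27.5% called (15.0% higher, 12.5% lower). With Palmul-tang 5 rose and 0 fell, against 32.1% called (17.3% higher, 14.8% lower), and with Sibjeondaebo-tang 6 rose and 0 fell, against 39.6% called (20.5% higher, 19.1% lower). Median log2 fold changes of the members were 0.20, 0.33, 0.32 and 0.38 in that order, and those of all genes tested lay between -0.02 and 0.00. The 4 comparisons share the vehicle libraries and are not independent of each other. A call is an adjusted p under 0.05 in edgeR's quasi-likelihood test with Benjamini-Hochberg adjustment over all genes tested, and fold changes are log2 values ± SE.

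GCLM was at 65.2, 67.2 and 58.8 CPM in the 3 vehicle libraries. It was at 97.1 and 87.7 CPM with high-dose Sagunja-tang and at 128 and 125 with Samul-tang. With Palmul-tang it was at 115, 113 and 112 CPM, and with Sibjeondaebo-tang at 121, 120 and 118. Every high-dose library lay above every vehicle library, and the 4 extracts did not overlap each other, Sagunja-tang being lowest and Samul-tang highest. Against vehicle GCLM rose most with Samul-tang, by 0.98 ± 0.05 (adjusted p = 6.11e-14), and by 0.91 ± 0.05 with Sibjeondaebo-tang (4.37e-14), 0.83 ± 0.05 with Palmul-tang (4.72e-13) and 0.53 ± 0.05 with Sagunja-tang (3.93e-08).

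GCLC, whose product carries the active site of the ligase, was at 102, 106 and 89.6 CPM in vehicle. With high-dose Sagunja-tang it was at 108 and 110 CPM, barely above the highest vehicle library. Samul-tang gave 168 and 174 CPM, Palmul-tang 154, 149 and 149, and Sibjeondaebo-tang 158, 145 and 146. The latter 3 extracts lay far above vehicle, and Palmul-tang and Sibjeondaebo-tang overlapped. GCLC rose by 0.79 ± 0.05 (adjusted p = 9.50e-12) with Samul-tang, by 0.60 ± 0.05 (2.55e-10) for Palmul-tang and 0.59 ± 0.05 (3.22e-10) for Sibjeondaebo-tang. With Sagunja-tang the rise was 0.13 ± 0.05 (adjusted p = 0.0484), and that call was lost without vehicle replicate 3 (0.07, adjusted p = 0.330), without Sagunja-tang replicate 2 (0.15, 0.124) or replicate 3 (0.12, 0.164), with RLE size factors (0.0510), with no filter on low counts (0.0632) and with only the groups compared (0.280).

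SLC7A11, through which cystine enters the cell in exchange for glutamate, was at 152, 149 and 132 CPM in vehicle. Sagunja-tang gave 172 and 182 CPM at the high dose and Samul-tang 283 in both libraries. Palmul-tang gave 234, 232 and 232 CPM and Sibjeondaebo-tang 228, 226 and 220. No high-dose library overlapped vehicle, and the order of the extracts was Sagunja-tang, Sibjeondaebo-tang, Palmul-tang and Samul-tang from low to high, without overlap. In this order the rises were 0.29 ± 0.05 (adjusted p = 2.32e-05), 0.63 ± 0.04 (7.28e-12), 0.68 ± 0.04 (1.79e-12) and 0.97 ± 0.05 (7.74e-15).

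GSR, which returns oxidized glutathione to the reduced form, was at 65.6, 61.5 and 58.6 CPM in vehicle. At the high dose the Sagunja-tang libraries were at 76.4 and 71.9 CPM and those of Samul-tang at 92.7 and 87.8. Palmul-tang gave 90.1, 83.2 and 84.7 CPM, and Sibjeondaebo-tang 89.1, 88.7 and 90.7. All of these lay above vehicle, and the latter 3 extracts overlapped. GSR rose by 0.26 ± 0.05 (adjusted p = 2.62e-04), 0.54 ± 0.05 (8.45e-09), 0.47 ± 0.05 (1.44e-08) and 0.53 ± 0.05 (1.38e-09) in the order in which they are named.

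GSS, the second enzyme of synthesis, followed another course: it was called higher than vehicle at low dose already and was not called between low and high dose. It was at 56.6, 54.0 and 52.1 CPM in vehicle. At the low dose Sagunja-tang gave 60.7 and 63.7 CPM and Samul-tang 65.7 and 63.0. Low-dose Palmul-tang gave 61.6, 66.3 and 61.4 CPM, and Sibjeondaebo-tang 61.3, 58.4 and 65.9. Every low-dose library lay above every vehicle library, and GSS was called higher in all 4 low-dose comparisons, by 0.20 ± 0.06 (adjusted p = 0.0191), 0.25 ± 0.06 (0.00622), 0.22 ± 0.05 (0.00555) and 0.19 ± 0.05 (0.0122). Among these the call with Palmul-tang held when any 1 library was left out, and the others did not (adjusted p from 0.0528 to 0.156). At the high dose it was called higher with Sagunja-tang (0.32 ± 0.06, adjusted p = 1.40e-04) and Sibjeondaebo-tang (0.22 ± 0.05, 0.00153), and was 0.13 ± 0.06 (0.126) with Samul-tang and 0.10 ± 0.05 (0.150) with Palmul-tang. The libraries of high-dose Sagunja-tang were 74.4 CPM in replicate 2, the highest of all 33, and 61.5 in replicate 3. The rise was 0.18 without replicate 2 and 0.46 without replicate 3, called in both cases, and these are the libraries that differed along gene length.

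Both peroxidases and MGST1 changed by log2 0.18 or less against vehicle at the high dose. GPX2 was at 873, 906 and 996 CPM in vehicle, and high-dose Sagunja-tang lay below these at 808 and 848. Samul-tang gave 860 and 1011 CPM, Palmul-tang 996, 1038 and 1072, and Sibjeondaebo-tang 1063, 1066 and 1006. The Samul-tang and Palmul-tang libraries overlapped vehicle. GPX2 was called higher with Palmul-tang (0.16 ± 0.06, adjusted p = 0.0491) and Sibjeondaebo-tang (0.18 ± 0.06, 0.0270), and both calls depended on single libraries. The first was lost without vehicle replicate 1 (0.12, adjusted p = 0.195) or 2 (0.14, 0.148), without Palmul-tang replicate 2 (0.16, 0.100) or 3 (0.13, 0.176), and with RLE size factors (0.0543). The second was lost without vehicle replicate 1 (0.14, 0.128) or 2 (0.16, 0.0858) and without Sibjeondaebo-tang replicate 1 (0.16, 0.0745) or 2 (0.16, 0.0807). With Sagunja-tang GPX2 was -0.16 ± 0.07 (0.0814), and it was called lower without vehicle replicate 1 (-0.20, 0.0422), with no filter on low counts (-0.16, 0.00840) and with trends of gene length and GC content removed (-0.34, 0.00203). With these trends removed, GPX2 was 0.02 ± 0.07 (0.863) with Palmul-tang and -0.01 ± 0.07 (0.911) with Sibjeondaebo-tang.

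GPX4, whose loss leaves cells open to lipid peroxidation and ferroptosis, varied least among the members in CPM. It was at 250, 249 and 255 CPM in vehicle, and its group means varied by a coefficient of variation of 4.16% over the 13 groups, against 28.8% for GCLM, 26.9% for GCLC and 28.6% for SLC7A11. Of the comparisons with vehicle it was called in 1, high-dose Samul-tang, at 206 and 241 CPM, where it fell by 0.17 ± 0.06 on the log2 scale (adjusted p = 0.0408). This call was lost without Samul-tang replicate 2 (-0.06, adjusted p = 0.639), without vehicle replicate 1 (-0.17, 0.0605), 2 (-0.18, 0.0561) or 3 (-0.16, 0.101), and with only the groups compared (0.0778). GPX4 depends on the processing more than these values show. With trends of gene length and GC content removed it was called lower than vehicle at the high dose of Sagunja-tang (-0.21, 0.00508), Palmul-tang (-0.15, 0.0268) and Sibjeondaebo-tang (-0.16, 0.0163, in place of 0.00 and 0.963), at all 4 medium doses (-0.16 to -0.22) and at the low dose of Sagunja-tang (-0.21, 0.0112), Palmul-tang (-0.17, 0.0204) and Sibjeondaebo-tang (-0.19, 0.00904). At the medium dose of Sagunja-tang it was also called with DESeq2 (-0.16, 0.0420), with no filter on low counts (-0.15, 0.0361) and without Sagunja-tang replicate 3 (-0.28, 0.0139). MGST1 was at 191, 213 and 221 CPM in vehicle and at 205 to 248 in the high-dose libraries, which overlapped vehicle with each extract, and it was not called (adjusted p from 0.111 to 0.947).

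**Figure D2:**
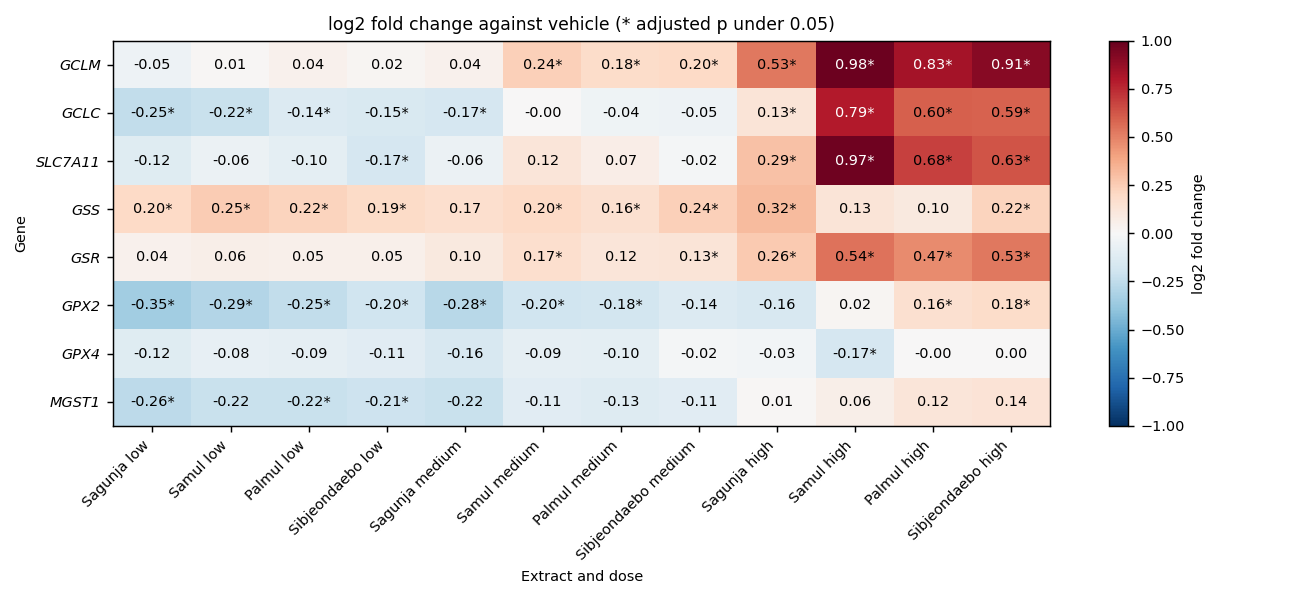
The grid gives the log2 fold change of each gene (rows) against vehicle for each extract and dose (columns, low to high dose), with red for higher, blue for lower and a star for an adjusted p under 0.05. GCLM, GCLC, SLC7A11 and GSR carry a star in all 4 high-dose columns, while GSS is higher and GCLC and GPX2 are lower in all 4 low-dose columns.

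Against vehicle, low doses did not give a smaller form of the high-dose pattern. The 4 low-dose comparisons, including those of GSS above, share the vehicle libraries and are not independent of each other. In each of them the extract and the sample code cannot be told apart. GCLC and GPX2 were lower than vehicle in all 4 low-dose comparisons, MGST1 was called lower in 3 and near the threshold in the fourth, and GCLM and GSR were called in none. Of the members, 1 was called higher and 3 lower with low-dose Sagunja-tang, where 21.9% of all genes tested were called (11.1% higher, 10.7% lower). With Samul-tang 1 was higher and 2 were lower (17.6% called, 8.89% higher, 8.71% lower). Palmul-tang had 1 higher and 3 lower (20.3% called, 10.6% higher, 9.74% lower), and Sibjeondaebo-tang 1 higher and 4 lower (22.0% called, 11.1% higher, 10.9% lower). Low-dose GCLC was at 83.6 and 83.1 CPM with Sagunja-tang and at 85.6 and 84.1 with Samul-tang. Palmul-tang gave 91.0, 88.8 and 90.0 CPM and Sibjeondaebo-tang 94.7, 86.3 and 86.5. The first pair of extracts lay below all vehicle libraries and the latter pair overlapped vehicle replicate 3. The changes of GCLC were -0.25 ± 0.05 (adjusted p = 0.00167), -0.22 ± 0.05 (0.00532), -0.14 ± 0.05 (0.0357) and -0.15 ± 0.05 (0.0203).

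In the same order GPX2 changed by -0.35 ± 0.07 (adjusted p = 0.00109), -0.29 ± 0.07 (0.00625), -0.25 ± 0.06 (0.00698) and -0.20 ± 0.06 (0.0235) at the low dose. MGST1 changed by -0.26 ± 0.08 (0.0219), -0.22 ± 0.08 (0.0534, not called), -0.22 ± 0.07 (0.0322) and -0.21 ± 0.07 (0.0337). MGST1 with Samul-tang was called with DESeq2 (-0.22, 0.0343), with only the groups compared (-0.22, 0.0368), with no filter (-0.21, 0.00118) and without vehicle replicate 1 (-0.28, 0.0204). SLC7A11 was lower with Sibjeondaebo-tang (-0.17 ± 0.04, 0.00494) and had adjusted p from 0.0571 to 0.420 with the others. Vehicle replicate 3 was lowest of its group in GCLM, GCLC, SLC7A11, GSS and GSR and highest in GPX2, GPX4 and MGST1. It thus lay at an end of the vehicle group for every member. It also had the highest mitochondrial share, 11.4%. Of the 16 member calls at the low dose, 3 held when any 1 library was left out: GCLC with Sagunja-tang, GSS with Palmul-tang and SLC7A11 with Sibjeondaebo-tang. The others were each lost without at least 1 vehicle or extract library, at adjusted p from 0.0513 to 0.267, and kept their sign. Without vehicle replicate 3, for example, GPX2 was -0.19 (0.0658) for Palmul-tang and -0.14 (0.166) for Sibjeondaebo-tang, and without vehicle replicate 2 GCLC was -0.09 (0.238) and -0.10 (0.170).

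At the medium dose GCLM was higher than vehicle with Samul-tang (0.24 ± 0.05, adjusted p = 0.00180), Sibjeondaebo-tang (0.20 ± 0.05, 0.00261) and Palmul-tang (0.18 ± 0.05, 0.00897), and was 0.04 ± 0.05 (0.665) with Sagunja-tang. The Samul-tang libraries were at 76.2 and 74.8 CPM, those of Palmul-tang at 75.7, 69.9 and 70.7 and those of Sibjeondaebo-tang at 72.5, 71.7 and 75.5, all above vehicle. SLC7A11 was called with none of the extracts at this dose (adjusted p from 0.0722 to 0.795), although with Samul-tang (0.12, 0.0722) it was called with DESeq2 (0.12, 0.0463), without vehicle replicate 1 (0.16, 0.0220) and with length and GC trends removed (0.14, 0.0165). GCLC was called only with Sagunja-tang, where it was lower (-0.17 ± 0.05, 0.0244). In all, 0 members were higher and 2 lower with Sagunja-tang, where 16.4% of all genes tested were called (8.40% higher, 8.05% lower). Samul-tang had 3 higher and 1 lower (20.1% called, 10.9% higher, 9.27% lower). Palmul-tang had 2 higher and 1 lower (20.0% called, 10.3% higher, 9.63% lower), and Sibjeondaebo-tang 3 higher and 0 lower (26.0% called, 14.0% higher). Of these 12 calls, 3 held when any 1 library was left out: GCLM with Samul-tang, and GCLM and GSS with Sibjeondaebo-tang. The others were each lost without at least 1 library, at adjusted p from 0.0503 to 0.372; GCLM with Palmul-tang was lost without vehicle replicate 3 (0.12, 0.0911) or Palmul-tang replicate 1 (0.14, 0.0698).

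Within an extract the doses share a sample code and no vehicle library enters the comparison. From low to high dose GCLM, GCLC, SLC7A11 and GSR rose with all 4 extracts, and GPX2 and MGST1 rose with 3. Neither GSS nor GPX4 was called in any. With Sibjeondaebo-tang GPX4 was called higher with only the groups compared (0.11, adjusted p = 0.0442) and without low-dose replicate 2 (0.16, 0.0486). GSS with Sagunja-tang was 0.25 without high-dose replicate 3, so whether it was called depended on that library. That fit left a single library in the group. Of the members 4 rose with Sagunja-tang, where 7.19% of all genes tested were called (3.33% higher, 3.86% lower), and 6 with Samul-tang (7.53% called, 4.10% higher, 3.43% lower). Another 6 rose with Palmul-tang (14.4% called, 7.66% higher, 6.75% lower) and 6 with Sibjeondaebo-tang (29.9% called, 15.5% higher, 14.3% lower), and 0 fell in any of the 4. Median log2 fold changes over the 8 members were 0.24, 0.40, 0.42 and 0.43, and those over all genes tested lay between -0.01 and 0.00.

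SLC7A11 rose from 135 and 131 CPM at the low dose to 172 and 182 at the high dose of Sagunja-tang (0.42 ± 0.05, adjusted p = 8.64e-06) and from 141 and 136 to 283 and 283 CPM with Samul-tang (1.03 ± 0.05, 2.77e-14). It rose from 134, 136 and 135 to 234, 232 and 232 CPM with Palmul-tang (0.78 ± 0.04, 1.70e-13), and from 135, 125 and 126 to 228, 226 and 220 CPM with Sibjeondaebo-tang (0.80 ± 0.04, 5.03e-14). Low-dose and high-dose libraries did not overlap for any of the 4 extracts. GCLC rose by 0.38 ± 0.06, 1.01 ± 0.06, 0.74 ± 0.05 and 0.75 ± 0.05, and GCLM by 0.58 ± 0.06, 0.98 ± 0.06, 0.79 ± 0.05 and 0.89 ± 0.05, in the order of extracts just given. GSR rose by less in each extract: 0.22 ± 0.06, 0.49 ± 0.06, 0.43 ± 0.05 and 0.48 ± 0.05.

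GPX2 rose from 747 and 762 to 860 and 1011 CPM with Samul-tang (0.31 ± 0.08, adjusted p = 0.0108), from 799, 751 and 787 to 996, 1038 and 1072 CPM with Palmul-tang (0.41 ± 0.06, 3.98e-05), and from 809, 839 and 767 to 1063, 1066 and 1006 CPM with Sibjeondaebo-tang (0.38 ± 0.06, 4.73e-05). MGST1 rose by 0.28 ± 0.09 (0.0439), 0.34 ± 0.07 (0.00141) and 0.35 ± 0.07 (3.76e-04). With Sagunja-tang GPX2 was 0.20 ± 0.08 (0.119) and MGST1 0.27 ± 0.09 (0.0600), not called. MGST1 was called there with DESeq2 (0.26, 0.0328), with no filter (0.25, 3.87e-04) and with length and GC trends removed (0.29, 0.0453), and GPX2 with no filter (0.18, 0.0122). The rise of MGST1 with Samul-tang was lost without any 1 of its high-dose or low-dose libraries (adjusted p from 0.0617 to 0.404), and that of GPX2 without low-dose replicate 2 (0.29, 0.129) or 3 (0.32, 0.0851) or high-dose replicate 3 (0.18, 0.317). For GSR with Sagunja-tang the call was lost without high-dose replicate 2 (0.17, 0.329) or low-dose replicate 2 (0.23, 0.0876) or 3 (0.20, 0.148). Fitting only the 2 doses of Sagunja-tang called 0 of 8 members and 0 genes in all, with GCLM at 0.59 ± 0.08 (0.320).

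**Figure D3:**
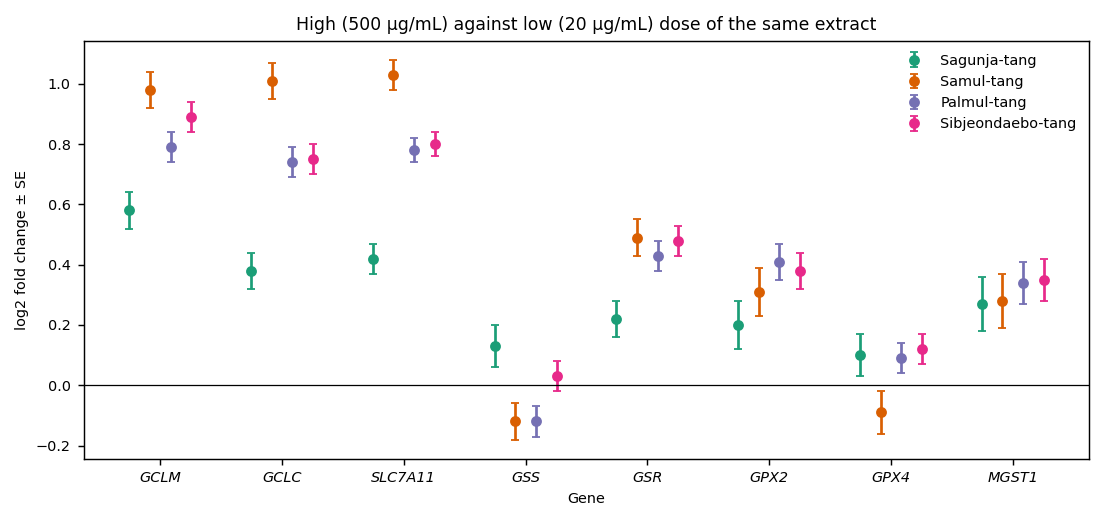
The y axis gives the log2 fold change from 20 to 500 µg/mL of the same extract for each gene on the x axis, with bars of 1 SE and colours for the 4 extracts. Sagunja-tang is the lowest of the 4 for GCLM, GCLC, SLC7A11 and GSR, and GSS and GPX4 lie near 0.

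Between low and medium dose 0 members were called with any extract, and few genes were called at all: 0% of genes tested for Sagunja-tang, 0.00574% for Samul-tang and Palmul-tang each, and 0.0975% for Sibjeondaebo-tang. At an unadjusted p under 0.05 in edgeR there were 0, 4, 3 and 3 members, against 523, 698, 836 and 1744 of the 17432 genes tested. DESeq2 called 0 members in the first 3 extracts, where it called 0, 4 and 5 genes in all. With Sibjeondaebo-tang it called 107 genes and 2 members, GCLM (0.18 ± 0.05, adjusted p = 0.0305) and SLC7A11 (0.15 ± 0.04, 0.0468). In edgeR GCLM was 0.24 ± 0.06 (adjusted p = 0.463) for Samul-tang, 0.18 ± 0.05 (0.108) for Sibjeondaebo-tang and 0.14 ± 0.05 (0.750) for Palmul-tang.

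At 500 µg/mL the extracts were compared directly in 4 of the possible pairs, with p adjusted over all genes tested in each. Samul-tang stood above Sagunja-tang in GCLM (0.45 ± 0.06, adjusted p = 1.25e-05), GCLC (0.65 ± 0.06, 2.86e-08), SLC7A11 (0.68 ± 0.05, 9.81e-10) and GSR (0.28 ± 0.06, 0.00430), 4 members higher and 0 lower against 5.47% of all genes called. Over all genes the number called was 64 without Sagunja-tang replicate 2, 105 or 147 without Samul-tang replicate 2 or 3 and 4092 without Sagunja-tang replicate 3, while 3 to 5 members were called. Palmul-tang stood above Sagunja-tang in GCLM (0.30 ± 0.05, 0.00252), GCLC (0.47 ± 0.05, 8.34e-06), SLC7A11 (0.39 ± 0.05, 1.52e-05), GSR (0.21 ± 0.05, 0.0279) and GPX2 (0.32 ± 0.07, 0.0177), 5 members against 1.82% of all genes. Over all genes 23 to 139 were called without 1 library other than Sagunja-tang replicate 3, and 3670 without that one. The count of members was 3 without Sagunja-tang replicate 2 or without Palmul-tang replicate 3, as the calls of GSR and GPX2 were lost. Neither pair kept a member call when only its own libraries were fitted, where 2 genes and 1 gene were called in all. The sizes stayed, with GCLC at 0.65 ± 0.08 (0.135) and 0.46 ± 0.06 (0.0945). GSS went the other way and was not called, at -0.20 ± 0.07 (0.0714) for Samul-tang and -0.22 ± 0.06 (0.0532) for Palmul-tang against Sagunja-tang. It was called lower with DESeq2 (0.0348 and 0.0154) and with no filter (0.0390 and 0.00875). For Palmul-tang it was also called lower with length and GC trends removed (-0.26, 0.0276).

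Palmul-tang, which holds the herbs of Samul-tang, stood below it in SLC7A11, by 0.28 ± 0.04 on the log2 scale (-0.28, 95% interval -0.38 to -0.19, adjusted p = 0.00398), the only member among 0.138% of genes called. That call was lost without Samul-tang replicate 2 (adjusted p = 0.0853) or replicate 3 (0.109). GCLC (-0.18, interval -0.29 to -0.08, 0.184) and GCLM (-0.15, -0.26 to -0.05, 0.244) had unadjusted intervals below 0 and were not called. With DESeq2 GCLC was called lower (-0.18, 0.0368). These comparisons cross sample codes, unlike Samul-tang against Sagunja-tang. Between Sibjeondaebo-tang and Palmul-tang, which share a code, 0 of 8 members were called, where 3.87% of all genes were called. At an unadjusted p under 0.05 there was 1 member in edgeR among 2864 genes of 17432, and DESeq2 called 0 among 776. That member was GSS (0.12, 95% interval 0.01 to 0.23, adjusted p = 0.247). The 95% intervals were -0.01 to 0.17 for GCLM, -0.11 to 0.08 for GCLC, -0.13 to 0.03 for SLC7A11 and -0.03 to 0.15 for GSR, so differences beyond log2 0.17 lie outside all 4 of them.

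The rise from low to high dose was also compared between extracts. With Samul-tang it was larger than with Sagunja-tang for SLC7A11, by 0.61 ± 0.07 (adjusted p = 1.96e-05), GCLC, by 0.63 ± 0.08 (8.91e-05), and GCLM, by 0.39 ± 0.08 (0.0280), 3 members among 0.138% of all genes called. The call of GCLM was lost without Sagunja-tang low-dose replicate 2 (0.210) or 3 (0.105), Samul-tang high-dose replicate 2 (0.189) or 3 (0.0786), or Samul-tang low-dose replicate 2 (0.122) or 3 (0.220). With only these 4 groups in the fit 0 members and 0 genes were called, with adjusted p = 0.0648 for SLC7A11 and GCLC and 0.767 for GCLM. The other comparisons of rises called 0 members: Palmul-tang with Sagunja-tang (0.00574% of all genes called), Palmul-tang with Samul-tang (0%) and Sibjeondaebo-tang with Palmul-tang (1.45%). At an unadjusted p under 0.05 these had 6, 3 and 0 members in edgeR, among 1501, 691 and 1881 of 17432 genes. DESeq2 called 2, 0 and 0 members among 24, 4 and 289 genes. For Palmul-tang against Sagunja-tang the rise of SLC7A11 differed by 0.37 (95% interval 0.23 to 0.50, adjusted p = 0.0525) and that of GCLC by 0.36 (0.21 to 0.51, 0.0948).

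Across the 33 libraries GCLM, GCLC, SLC7A11 and GSR varied together, and GPX2 varied with MGST1. In log2 CPM, Pearson's r was 0.97 between GCLM and GCLC, 0.97 between GCLM and SLC7A11, 0.98 between GCLC and SLC7A11, 0.97 between GCLM and GSR, 0.94 between GCLC and GSR and 0.95 between SLC7A11 and GSR. The libraries fall into 10 of high dose and 23 others. Within the high dose these were 0.94, 0.88, 0.96, 0.96, 0.88 and 0.79. Within the other libraries they were lower, at 0.69, 0.78, 0.78, 0.75, 0.33 and 0.57, lowest for GCLC with GSR. GPX2 and MGST1 gave 0.92 in all libraries, 0.78 in the high-dose ones and 0.89 in the others, GPX2 and GCLM 0.73, 0.58 and 0.02, and GPX2 and GCLC 0.81, 0.62 and 0.55. GPX4 was nearer to these, with 0.59 for GPX2 and 0.65 for MGST1 against 0.19 for GCLM. GSS ran opposite to GPX2 (-0.41 in all libraries, -0.56 within the high dose, -0.68 without it). With GCLM it had 0.04, -0.40 and 0.27 in the same order, and with GCLC -0.17, -0.66 and -0.35. It had -0.11, -0.67 and -0.11 with SLC7A11, and 0.10, -0.31 and 0.49 with GSR. These values describe libraries that share dose, extract, depth and normalization.

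Among 10982 genes of at least log2 CPM 2 on average, those whose level followed GCLM most closely were AKR1B10, an aldo-keto reductase (r = 0.992), ME1, the cytosolic malic enzyme that makes NADPH (0.990), AKR1C2 (0.985), ALDH3A1, an aldehyde dehydrogenase (0.981), and UGT1A10 (0.981). AKR1C2 and UGT1A10 have near-identical relatives, and their counts are uncertain to that extent. For GCLC they were SLC7A11 (0.982), GPAT3 (0.978), UGDH, which makes UDP-glucuronate (0.973), ASPH (0.968) and GCLM (0.968). SLC7A11 was followed by GCLC (0.982), AKR1B10 (0.975), GCLM (0.972), AKR1C2 (0.969) and GPAT3 (0.968). In the libraries without the high dose these coefficients were lower, for example 0.88 for AKR1B10 with GCLM and 0.78 for GCLC with SLC7A11. For GPX4 the nearest were RPL26, a ribosomal protein gene (0.869), DBNDD2 (0.846), PFN1, profilin (0.845), FAM174C (0.841) and RPS15, also ribosomal (0.839).

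Genes around the members were taken from 6 lists, each compared between high and low dose with counts given for Sagunja-tang first, then Samul-tang, Palmul-tang and, last, Sibjeondaebo-tang. In this order 7.19, 7.53, 14.4 and 29.9% of all genes tested were called, and the lists are small, so a few calls in a list can lie near that share. In the supply of cystine and cysteine and the methionine cycle, 8 of 10 listed genes were tested, of which 0, 2, 3 and 3 rose and 0, 0, 0 and 2 fell (medians 0.06, 0.06, 0.05 and 0.01). SLC1A5, an exchanger of glutamine and other neutral amino acids, rose by 0.26 ± 0.05 (adjusted p = 0.00260), 0.23 ± 0.04 (6.54e-04) and 0.35 ± 0.04 (6.91e-07) with the latter 3 extracts and was 0.17 ± 0.05 (0.0525) with Sagunja-tang. CSAD, which decarboxylates cysteine sulfinate on the way to taurine, fell only with Sibjeondaebo-tang, from 10.8 ± 0.394 to 5.51 ± 0.386 CPM (-0.98 ± 0.07, 7.69e-11), and was -0.05 to 0.08 with the other extracts (adjusted p from 0.616 to 0.874). Its fall from low to high dose was larger than with Palmul-tang by a test of the difference (adjusted p = 4.52e-07), and at the high dose it stood below Palmul-tang by -0.92 ± 0.07 (2.13e-09). SLC3A2, the heavy chain that SLC7A11 needs at the membrane, was chosen for mention after its values were seen. It rose by 0.43 ± 0.08 (0.00139), 0.36 ± 0.07 (4.86e-04) and 0.43 ± 0.07 (2.36e-05) and was 0.27 ± 0.08 (0.0522) with Sagunja-tang. Its level in vehicle was 119 ± 15.9 CPM.

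Of genes for the breakdown and export of glutathione, 13 of 14 were tested, of which 2, 2, 2 and 4 rose and 3, 3, 4 and 5 fell, beside 7.19, 7.53, 14.4 and 29.9% of all genes called in either direction (medians -0.18, 0.03, -0.09 and 0.02). ABCC2, an export pump for glutathione conjugates, rose in all 4 extracts, by 0.91 ± 0.23 (adjusted p = 0.0184), 1.74 ± 0.20 (8.71e-07), 1.02 ± 0.17 (8.65e-05) and 1.21 ± 0.17 (4.36e-06). Its level was low, at 1.34 ± 0.356 CPM in vehicle and 4.37 ± 0.169 CPM with high-dose Samul-tang. GGT1 and DPEP1, which act in turn on extracellular glutathione, were the 2 genes of the list that fell in all 4. GGT1, a gamma-glutamyltransferase gene with near-identical copies and therefore uncertain, changed by -0.36 ± 0.11 (0.0437), -0.46 ± 0.11 (0.00613), -0.36 ± 0.09 (0.00567) and -0.31 ± 0.09 (0.00871). DPEP1, a dipeptidase that splits cysteinylglycine, changed by -0.27 ± 0.08 (0.0459), -0.53 ± 0.08 (1.13e-04), -0.47 ± 0.07 (1.82e-05) and -0.43 ± 0.07 (2.48e-05).

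Among other peroxidases and genes of defence against lipid radicals, 8 of 9 were tested, of which 1, 2, 2 and 5 rose and 0, 0, 1 and 1 fell, beside the same 7.19, 7.53, 14.4 and 29.9% of all genes called (medians 0.17, 0.15, 0.10 and 0.24). AIFM2, which encodes FSP1, a reductase that protects membranes from lipid peroxidation apart from glutathione, rose in all 4 extracts: 0.26 ± 0.07 (adjusted p = 0.0167), 0.35 ± 0.07 (7.55e-04), 0.36 ± 0.05 (2.90e-05) and 0.43 ± 0.05 (9.31e-07). It was at 38.7 ± 1.36 CPM in vehicle and 54.5 ± 2.26 to 58.8 ± 2.19 CPM at the high dose. GPX4 itself did not pass the test in any of these comparisons.

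Of glutathione transferases 11 of 14 were tested, of which 0, 1, 1 and 3 rose and 0, 0, 0 and 1 fell, where 7.19, 7.53, 14.4 and 29.9% of all genes were called. GSTP1 rose with Palmul-tang (0.14 ± 0.04, adjusted p = 0.0146) and Sibjeondaebo-tang (0.25 ± 0.04, 2.66e-05), and GSTK1 fell by 0.28 ± 0.06 with Sibjeondaebo-tang (0.00141). Of glutaredoxins, glyoxalases and the mitochondrial importers of glutathione, 10 of 10 were tested, of which 2, 0, 2 and 4 rose and 0, 0, 0 and 1 fell, against those same shares of all genes. GLRX3, a glutaredoxin of iron-sulfur handling, rose by 0.19 ± 0.06 (0.0342) with Sagunja-tang, by as much (0.00567) with Palmul-tang, and by 0.26 ± 0.05 (6.90e-05) with Sibjeondaebo-tang. SLC25A39, which carries glutathione into mitochondria, rose by 0.16 ± 0.04 (0.00490) with Palmul-tang and 0.12 ± 0.04 (0.0166) with Sibjeondaebo-tang.

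Of genes that build selenocysteine into proteins such as GPX2 and GPX4, 8 of 8 were tested, of which 0, 0, 0 and 1 rose and 0, 0, 0 and 1 fell, against 7.19, 7.53, 14.4 and 29.9% of all genes called, with medians between 0.00 and 0.08. SEPHS1 rose by 0.16 ± 0.03 (adjusted p = 3.83e-04) and SECISBP2, which binds the selenocysteine insertion element, fell by 0.11 ± 0.03 (0.0115), both with Sibjeondaebo-tang. CBS, CDO1, GGT5, GPX7, GSTA1, GSTA2 and GSTM2 did not pass the filter on low counts.

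**Figure D4:**
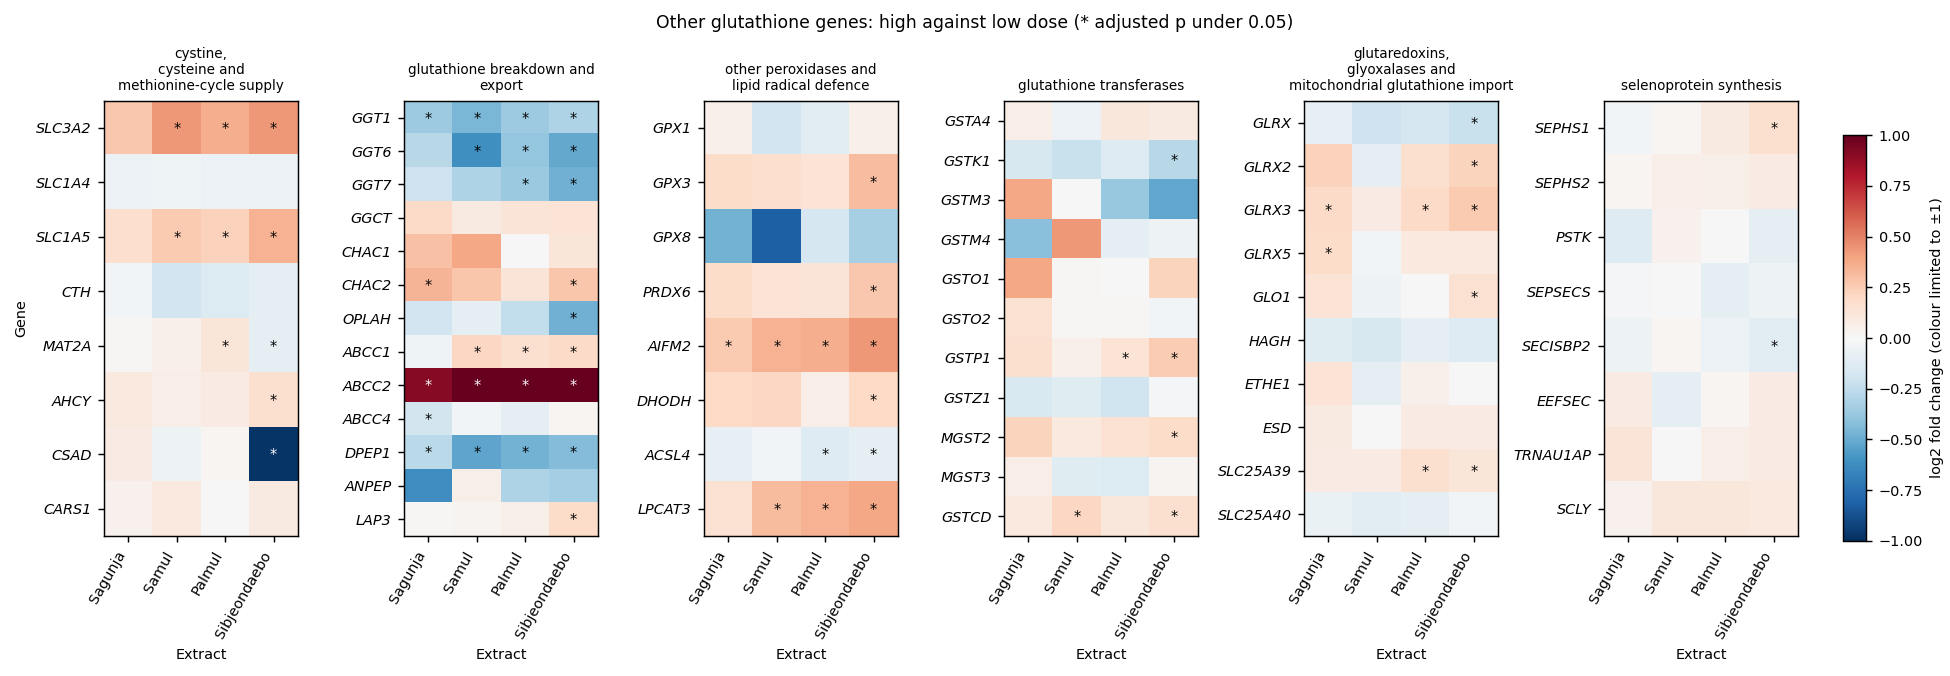
Each panel is 1 list of genes, with the log2 fold change from low to high dose in colour (red higher, blue lower, limited to 1 in either direction), extracts on the x axis and a star for an adjusted p under 0.05. ABCC2 and AIFM2 carry stars as higher and GGT1 and DPEP1 as lower in all 4 extracts.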

How the data were processed

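RNA-seq libraries of HT29 cells were analysed from the deposited table of expected counts per gene, which the authors made with FastQC 0.11.9, Trim Galore 0.6.5, STAR 2.7.3a and RSEM 1.3.3 on hg38 or GRCh38, per the submitters' processing notes. The kit was directional, per the labels' protocols. The release of the annotation is not given in the sources used here. Of the values 9.45% were not whole and were rounded. The table has 273 columns, of which 33 map to these samples and 240 were not used. Groups follow the labels.

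edgeR 4.0.16 in R 4.3.3 kept 17432 genes (filterByExpr, minimum count 10), normalized by TMM and fitted 1 coefficient per group over 33 libraries (20 residual and 7.00 prior degrees of freedom). Quasi-likelihood F tests were adjusted by Benjamini-Hochberg over all genes in each of 28 comparisons, with a threshold of 0.05. The SE is the log2 fold change divided by the square root of F. Symbols were found for 56558 of 60675 rows and positions for 57055 in GENCODE 29. The test was checked on simulated counts. Alternatives were DESeq2 1.42.0, RLE size factors, no filter, only the groups compared, a replicate block, each library left out, and, added after the data were seen, removal of length and GC trends.

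Members and lists were chosen with earlier results of these data known. All members are named. From each list the text names genes called the same way in all 4 high against low comparisons, or else the 2 with the smallest p, and for GCLM, GCLC, SLC7A11 and GPX4 the 5 genes most correlated with each.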

Additional observations from a re-analysis of the deposited data

Results flagged for a closer look

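For 3 genes the rise from low to high dose differed between extracts by a test of the difference itself. With Samul-tang against Sagunja-tang the log2 difference was 0.39 ± 0.08 for GCLM (adjusted p = 0.0280), 0.63 ± 0.08 for GCLC (8.91e-05) and 0.61 ± 0.07 for SLC7A11 (1.96e-05), in edgeR's quasi-likelihood test with Benjamini-Hochberg adjustment. The high-dose libraries of Samul-tang lay above those of Sagunja-tang for all 3 genes. With only the groups compared in the same test, 0 of these genes were called. Adjusted p was then 0.0648 for GCLC and SLC7A11 and 0.767 for GCLM. No group had more than 3 libraries, so single libraries far from their group were not looked for.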

How the results depend on the processing

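Replicate numbers are shared between groups. The deviations of same-numbered libraries from their group means had a mean correlation of 0.10 against -0.06 for different numbers. Of 177 same-numbered pairs, 88 exceeded 0.1, and 25 of 33 libraries correlated best with their own number, a hint from the data and not from the design. Deviations cancel within a group, so the means depend on each other and the pairs are not independent. No chance level was computed. With the replicate block the count of members called became 1 for Sibjeondaebo-tang medium against low, 2 for Palmul-tang against Samul-tang at the high dose and 2 for the rise with Palmul-tang against Sagunja-tang. For Palmul-tang against Samul-tang the added member was GCLC (-0.21, 0.0457). The block also called, among others, SLC7A11 for Samul-tang medium against vehicle (0.14, 0.0184), MGST1 for Samul-tang low against vehicle (-0.22, 0.0412) and MGST1 for Sagunja-tang high against low (0.27, 0.0360). With the block 215 of 224 member values kept their direction and side of the threshold. RLE size factors kept 221, DESeq2 209, no filter 205, removal of length and GC trends 199 and only the groups compared 194 of 224. Leaving out single libraries kept 1201 of 1328, with 108 lost calls, 19 gained and 0 reversed. With RLE, 1 of 104 member levels moved by more than its SD.

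The count of members called was 5 with no filter, 1 with only the groups compared and 5 with DESeq2 for Sagunja-tang medium against vehicle (2 in the test as reported). With only the groups compared it was 2 for Samul-tang medium, 0 for Palmul-tang medium and 2 for Palmul-tang low against vehicle, and 0 for Sagunja-tang high against low, for Samul-tang and for Palmul-tang against Sagunja-tang at the high dose, and for the rise with Samul-tang against Sagunja-tang. No filter gave 1 for Samul-tang and 1 for Sibjeondaebo-tang medium against low, and 2 for the rise with Palmul-tang against Sagunja-tang. DESeq2 gave 2 for Sibjeondaebo-tang medium against low, 2 for Palmul-tang against Samul-tang and 2 for the rise with Palmul-tang against Sagunja-tang, for which removal of length and GC trends gave 1. Fewer libraries enter the fits of only the groups compared. Between high and low dose such a fit called 1589 genes for Samul-tang, against 1313 as reported. For Sagunja-tang it called 0, against 1254 as reported. The cause of these and the other changes was not tested. With the length and GC trends removed, high-dose Sibjeondaebo-tang against vehicle reversed for GPX2 (-0.01, adjusted p = 0.911) and GPX4 (-0.16, 0.0163), and the cause was not tested.

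Leaving out 1 library gave 0 to 3 members for Sagunja-tang, 1 to 5 for Samul-tang and 0 to 4 for Palmul-tang at the medium dose against vehicle, and 1 to 4, 0 to 4, 1 to 3 and 1 to 4 for the 4 extracts at the low dose. It gave 3 to 5 for Palmul-tang against Sagunja-tang and 0 to 1 against Samul-tang at the high dose, and 0 to 3 for the rise with Palmul-tang against Sagunja-tang. Of 21 member calls at the high dose against vehicle 17 held in all alternatives, as did 16 of 22 from low to high dose, 3 of 12 at the medium and 3 of 16 at the low dose. Member calls between extracts at the high dose held less often. Of these 10 calls, 1 held in all alternatives other than leaving out a library, and 0 held when leaving out a library was included. Of 3 calls of rises 0 held by either count. Where leaving 1 out left a group with a single library, that library was taken to vary as other groups do. With 2 or 3 libraries per group, SEs of member differences were 0.04 to 0.12 on the log2 scale, which limits what can be seen at low and medium dose.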
